A study of Mus musculus with 2 samples.

Results

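Cluster 5 of the deposited annotation is the largest of the 10 clusters that the authors labelled bipolar cells (BC) in adolescent mouse retina. Its members were taken as every cell with the cell type BC and the cluster number 5, which gave 1461 of the 5743 bipolar cells and of the 30943 retinal cells in all. Of these, 771 came from the Ptbp1-Ctrl library and 690 from the Ptbp1-KO library. Bipolar cells are the interneurons that carry signals from photoreceptors to the inner retina. Rod bipolar cells receive glutamate from rods through the metabotropic receptor mGluR6. Light lowers that glutamate, the cascade behind mGluR6 relaxes, and the cation channel Trpm1 opens, which makes them ON cells; they are known for protein kinase C alpha and for passing their signal to AII amacrine cells rather than directly to ganglion cells.

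The 2 single-cell RNA libraries came from dissociated retinas of mice at 30 days of age. Ptbp1-Ctrl carried the Chx10-Cre transgene with wild-type Ptbp1, and Ptbp1-KO carried Chx10-Cre with both Ptbp1 alleles floxed (Ptbp1lox/lox), so that the promoter and the first exon are removed where Cre is active. Both genotypes share the Cre transgene, which is active in retinal progenitors, so recombination precedes the birth of bipolar cells and is not particular to them. The comparison asks whether bipolar cells formed without Ptbp1, a repressor of neuronal splicing, differ in expression.

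Each genotype is 1 library from 1 mouse, so no test between genotypes was possible, and every interval given here is a 95% interval for counting error only. Differences between mice, litters or library preparations cannot be told apart from the genotype. The study's methods describe female mice, yet cluster 5 held UMIs (unique molecular identifiers, 1 per captured RNA molecule) of 4 Y-linked genes, with 298 and 409 of Ddx3y, and 1 UMI of Xist in each library. Here and in what follows, a pair of values gives Ptbp1-Ctrl before Ptbp1-KO. The sex in the methods and these transcripts do not match in either library. The libraries shared 63 cell barcodes, 3 cluster 5 cells had a barcode also found in the other library, and no barcode occurred in cluster 5 of both. The depth differed: the median cluster 5 cell held 2987 and 4156 UMIs from 1691 and 2148 genes, and the cluster summed to 2460499 and 2968707 UMIs. Levels are therefore given as CPM, in which the summed UMIs of a gene are scaled to a cluster total of 1000000.

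Cluster 5 was rod bipolar-like. All 8 rod bipolar markers were high, and 7 of them had their highest level of the 10 bipolar clusters there. Prkca, which encodes protein kinase C alpha, was at 7011 and 6644 CPM against a mean of 271 CPM in the 8 clusters other than 5 and 10. Sebox, a homeobox gene, was at 565 and 594 CPM against 32.1 and 29.0 CPM in all other bipolar cells, a 19-fold difference. Car8, a carbonic anhydrase-related protein, was at 1068 and 1034 CPM, and the adhesion protein gene Tpbg at 393 and 314 CPM. Genes of cone bipolar cells were lower than in the other bipolar cells. Scgn, which encodes the calcium-binding protein secretagogin, was at 6.10 and 5.05 CPM against 397 and 460 CPM in the other bipolar cells. Vsx1 was at 2.03 and 1.01 CPM, and Lhx3 at 3.25 and 1.68 CPM. The OFF cone bipolar list summed to 261 and 246 CPM in cluster 5, most of it from the kainate receptor gene Grik1 at 226 and 191 CPM, against 1938 and 1657 CPM of Grik1 in the other bipolar cells. Because the clusters were built from these same cells and genes, these are descriptions and carry no test.

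The 4 genes given as markers of the cluster were not equally particular to it. Pcp2, a modulator of G-protein signalling, was at 5862 and 5795 CPM in cluster 5, and Trpm1 at 3163 and 3399 CPM. Over all other bipolar cells, Pcp2 was 5.64-fold, Trpm1 3.37-fold and Prkca 7.0-fold higher. Grm6, the mGluR6 gene itself, was only 1.40-fold higher, at 433 and 447 CPM, and 3 other bipolar clusters had more of it. ON cone bipolar cells are known to use the receptor too. The photoreceptor and bipolar homeobox gene Otx2 was at 391 and 438 CPM, and 7 other bipolar clusters had more of it. The bipolar homeobox gene Isl1 was highest in cluster 5, at 2.37-fold the level in the others. Lhx4 was 3.69-fold lower.

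Beyond the markers, the genes that stood highest in cluster 5 over the other bipolar cells included Gpnmb at 10.1-fold, the sodium bicarbonate cotransporter Slc4a4 at 9.41-fold, the matrix protease Adamts5 at 9.06-fold and the sorting receptors Sorcs3 and Sorl1 at 7.90-fold and 7.55-fold. Of the 15 highest genes, 6 belonged to the rod bipolar list (among them Sebox, Tpbg and Car8). Among the genes lowest in cluster 5, Adarb2, of the RNA-editing enzyme family, was 528-fold lower and the guidance cue Slit2 388-fold. The cadherin Cdh9 was 296-fold, the muscarinic receptor gene Chrm3 263-fold and the contactin Cntn5 242-fold lower. Cluster 5 held only 1 and 7 UMIs of Adarb2, 8 and 12 of Slit2, 3 and 4 of Cdh9 and 3 and 6 of Chrm3. The size and order of these folds are therefore rough. Among 2419 genes with 100 CPM in either, 18.3% differed at least 2-fold, 7.81% being higher and 10.5% lower in cluster 5. In the RefSeq promoter table of GRCm38.p6, 11 of the 15 highest genes had an entry. None of these 11 held the letters TAATCC or their complement GGATTA in the 250 bases before the gene start. Of all genes in the table, 7.21% did. At that share few of 11 genes would hold them, so this does not show a lack.

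Cluster 10 carried the same rod bipolar genes at lower depth. Its median cell held 1529 and 1858 UMIs. Prkca was at 8030.4 and 8053 CPM there and Trpm1 at 3155 and 3601 CPM, close to cluster 5. Among 2297 genes with 100 CPM in either, 11.1% were at least 2-fold higher in cluster 5 and 6.14% at least 2-fold lower, or 17.2% in all. The G-protein gamma subunit gene Gng13 was 5.39-fold higher in cluster 5 and Pcp4 4.85-fold, while Sebox was 3.91-fold and Pcp2 3.11-fold higher. Photoreceptor RNA also moved with this split. The 7 cone genes summed to 103 and 98.0 CPM in cluster 5 and to 2132 and 2153 CPM in cluster 10. The summed level of 12 rod genes in cluster 5 was 15.4% and 13.2% of that in rods of the same library, and in cluster 10 it was 33.2% and 29.9%. The median share of mitochondrial UMIs was 5.03% and 4.91% in cluster 5 and 5.73% and 5.09% in cluster 10. Erythrocyte genes had no UMI in cluster 5 and summed to 0 and 4279 CPM in cluster 10. The part of free RNA, RNA of other cells and depth in the split of the 2 clusters was not tested.

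Cluster 5 made up 24.1% of bipolar cells in Ptbp1-Ctrl (771 of 3194, Clopper-Pearson interval 22.7% to 25.7%) and 27.1% in Ptbp1-KO (690 of 2549, 25.4% to 28.8%). Of all cells it was 4.70% (4.38% to 5.03%) and 4.75% (4.41% to 5.11%). The share was higher in Ptbp1-KO among bipolar cells, where the intervals barely overlapped, and differed by less than counting error among all cells. With 1 retina preparation per genotype, recovery in dissociation and the number of cells in the retina cannot be told apart.

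Ptbp1 itself, at chr10:79854427-79864771 (GRCm38, plus strand), had 47 UMIs in the cluster 5 cells of Ptbp1-Ctrl, or 19.1 CPM (exact Poisson interval 14 to 25.4), and 0 in those of Ptbp1-KO. Set against a floor of 3 counts in Ptbp1-KO it was 18.9-fold lower. The counting interval of the log2 ratio ended at -3.89. Thinned to 1000 UMIs per cell, 13 of 769 Ptbp1-Ctrl cells (1.69%) had a UMI of Ptbp1 and 0 of 689 Ptbp1-KO cells did. A floor of 3 counts would put the Ptbp1-KO share at 0.435%. These are shares of cells with a UMI at this depth, not of cells that express the gene. Rods, which are not known for Ptbp1, had a UMI in 1.71% of Ptbp1-Ctrl cells at the same depth, so the level in cluster 5 was not above that of rods. The paralog Ptbp2, the neuronal member of the family, was at 212 and 218 CPM (log2 Ptbp1-KO over Ptbp1-Ctrl 0.04, interval -0.13 to 0.21). Ptbp3 was at 13.8 and 12.8 CPM (-0.11, -0.82 to 0.60).

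The rest of the transcriptome of cluster 5 was close between the libraries. Of 3797 genes with a mean of 50 CPM, 0.474% differed by 2-fold or more, with 8 higher (0.211%) and 10 lower (0.263%) in Ptbp1-KO. The median log2 ratio was 0.01, and 90% of genes lay between the 5th percentile of -0.34 and the 95th of 0.35. The counts fell to 1 higher and 3 lower when genes needed 200 CPM and rose to 53 and 62 when they needed 10 CPM. In cells thinned to 1000 UMIs, 16 genes were higher by 2-fold or more.

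**Figure D1:**
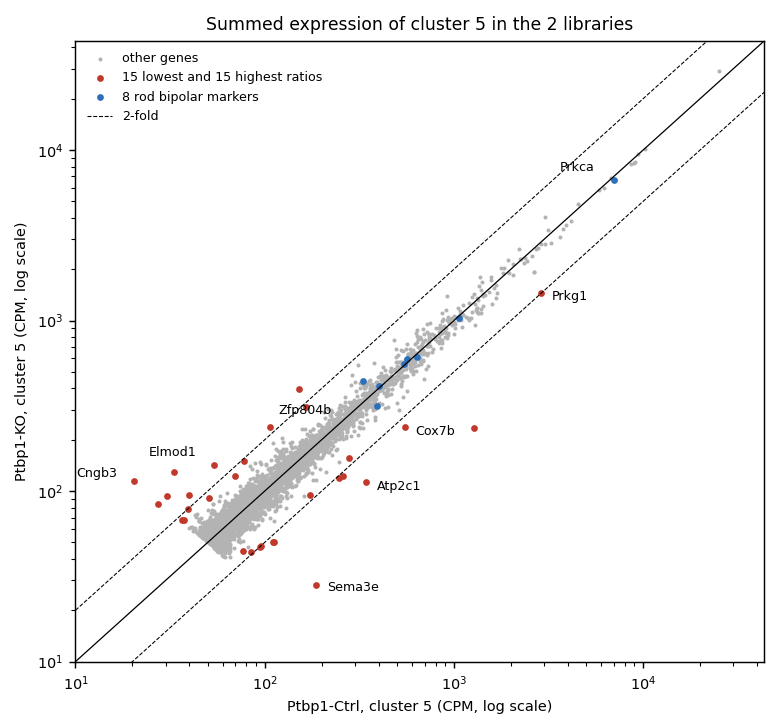
CPM of 3797 genes in cluster 5 of Ptbp1-Ctrl (x axis) and Ptbp1-KO (y axis), both on log scales, with the solid line at equality and dashed lines at 2-fold. The 8 rod bipolar markers lie near the solid line, Sema3e (187 and 28.0 CPM) lies farthest below it and Cngb3 (20.3 and 115 CPM) farthest above.

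The rod bipolar identity genes differed little. Of the 8 markers, 4 were higher and 4 lower in Ptbp1-KO, none by 2-fold. The median log2 ratio was -0.01 against 0.01 for all genes. The count was not stable: 1 was higher and 7 lower after subtraction of free RNA, and 2 were higher with equal weight per cell. The farthest were Tpbg at 393 and 314 CPM (-0.33, interval -0.46 to -0.19) and Rpa1, a single-strand DNA-binding protein gene, at 333 and 442 CPM (0.41, 0.28 to 0.54). Prkca differed by -0.08 (-0.11 to -0.05) and Sebox by 0.07 (-0.03 to 0.18).

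In the mGluR6 cascade, all 14 members had 20 UMIs or more, 8 were higher and 6 lower, none by 2-fold, and the median log2 ratio was 0.06. The receptor Grm6 was at 433 and 447 CPM (0.05, -0.07 to 0.16), and the G-protein alpha subunit Gnao1 at 1845 and 2040 CPM (0.15, 0.09 to 0.20). Gng13 was at 3029 and 4044 CPM (0.42, 0.38 to 0.46), and Gnb3, the beta subunit that pairs with it, at 938 and 1009 CPM (0.11, 0.03 to 0.18). The largest value belonged to Rgs7bp, an anchor of the RGS complex that ends the signal, at 89.4 and 145.9 CPM (0.71, 0.47 to 0.95). Its partners were close to equality, with Rgs7 at -0.10 and Rgs11 at -0.07, and the intervals of Rgs11 included 0. The channel Trpm1 was at 0.10 (0.06 to 0.15) and Gpr179, the scaffold that holds RGS proteins at the dendritic tips, at 330 and 420 CPM (0.35, 0.22 to 0.48). Lrit3, needed to place Trpm1 at the synapse, had only 29 and 24 UMIs and an interval of -1.39 to 0.29.

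Of 23 transcription factors, 17 had 20 UMIs or more, 9 of them higher and 8 lower, with a median of 0.07. Over all 11504 genes with 20 UMIs, 51.8% were higher and 48.2% lower by any amount, and 3.69% by 2-fold (2.3% higher and 1.39% lower). Six3, a forebrain and eye homeobox gene, was at 36.2 and 57.6 CPM (0.67, 0.29 to 1.06). Bhlhe23, which rod bipolar maturation needs, was at 180 and 196 CPM (0.12, -0.06 to 0.31). Isl1 and Otx2 were at 0.12 and 0.16 in the summed counts and at -0.06 and -0.18 when each cell was thinned to 1000 UMIs. The reason for this change of sign was not tested.

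Ribbon synapse and vesicle release genes, which serve the tonic output of the axon terminal, had 18 members with 20 UMIs, 12 higher and 6 lower, with a median of 0.10 and none at 2-fold. Cacna1d, a calcium channel pore subunit, was at 321 and 429 CPM (0.42, 0.29 to 0.55), Syp, the vesicle protein synaptophysin, at 342 and 426 CPM (0.32, 0.19 to 0.44), and the scaffold gene Bsn at 33.3 and 45.8 CPM (0.46, 0.05 to 0.87). Rims2, an active zone protein gene, was at 1349 and 1110 CPM (-0.28, -0.35 to -0.21). The lowest was Cabp4, a calcium sensor of photoreceptor terminals, at 55.7 and 30.0 CPM (-0.89, -1.29 to -0.50). The rod list moved with Cabp4: all 12 rod genes were lower in Ptbp1-KO cluster 5, with a median of -0.44, from Nr2e3 at -0.78 to Pde6a at -0.15. Subtraction of free RNA, which is scaled on these same genes, left 5 of them a value in both libraries, 3 higher (Nrl at 1.09, Pde6a at 1.05 and Gnat1 at 0.060) and 2 lower, and Pde6a was at 0.27 in thinned cells. The part of rod RNA in the value of Cabp4 was not tested.

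Inhibitory receptor genes, through which amacrine cells act on the terminal, had 7 members with 20 UMIs. Of these, 5 were higher and 2 lower, within -0.08 (Gabrr2) and 0.20 (Glrb). Gap junction and glutamate uptake genes had 3 members with 20 UMIs, all within -0.09 and -0.04. Among protein kinase C and calcium genes, 3 were higher and 6 lower, with the calcium pump gene Atp2b2 at 125 and 175 CPM (0.49, 0.28 to 0.70) and Prkcb at 31 and 21 UMIs (-0.83, -1.71 to 0.01). Among potassium and HCN channel genes, 2 were higher and 4 lower, with the auxiliary subunit gene Kcnab2 at 158 and 231 CPM (0.55, 0.37 to 0.73). Neuronal splicing regulators had 8 of 12 members with 20 UMIs, 6 higher and 2 lower; Srrm4, a neural exon activator, was at 511 and 529 CPM (0.05, -0.06 to 0.16), Celf4 at 0.15 and Nova1 at -0.17. Elavl3 passed 2-fold with 6 and 17 UMIs, an interval of -0.18 to 2.86. Dissociation stress genes had 5 higher and 6 lower, with a median of -0.07.

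**Figure D2:**
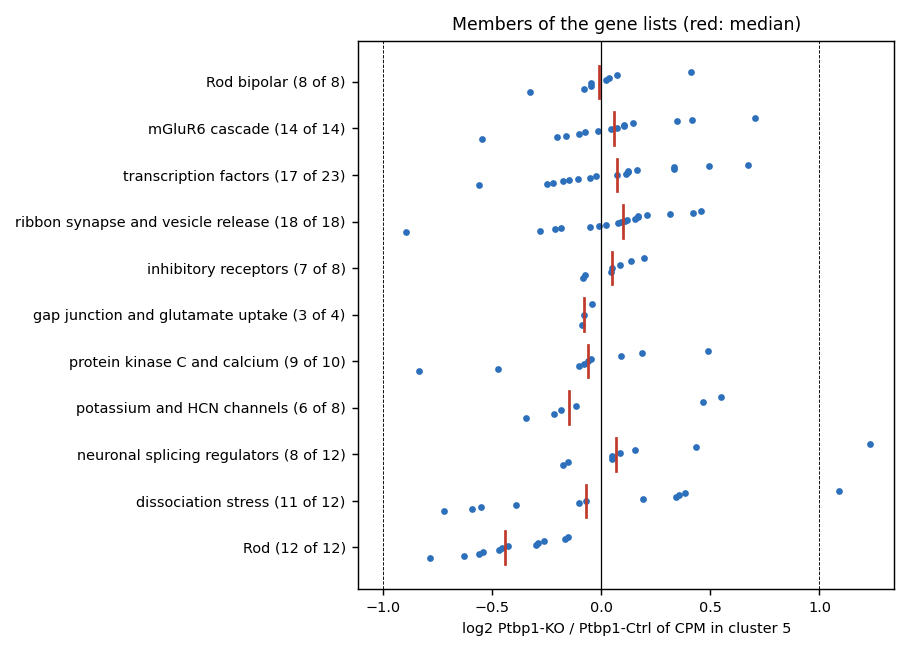
log2 Ptbp1-KO over Ptbp1-Ctrl of CPM in cluster 5 (x axis) for each member with 20 UMIs (blue points) of 11 lists (lines), with list medians in red and dashed lines at 2-fold. The medians of the 10 lists other than rods lie between -0.15 and 0.10, and all 12 rod genes lie below 0.

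Sema3e stood farthest below equality. It encodes a secreted semaphorin, a guidance cue that signals through plexin D1, and lies at chr5:14025276-14256689 on the plus strand. Its counts were 461 and 83 UMIs, or 187 and 28.0 CPM (log2 -2.74, interval -3.10 to -2.40). Thinned to 1000 UMIs, 15.7% of cluster 5 cells had a UMI in Ptbp1-Ctrl (13.2% to 18.5%) and 2.61% in Ptbp1-KO (1.56% to 4.10%), against 0.169% and 0.259% in rods. Cluster 10 had the same difference, with 90 and 14 UMIs (-2.80, -3.73 to -1.98). The other bipolar clusters were not lower: cluster 13, which had the most Sema3e, was at 407 and 426 CPM (0.07, -0.15 to 0.28), and the 8 clusters together at 65.9 and 87.5 CPM (0.41, 0.23 to 0.59). Müller glia had 231 and 197 CPM.

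Cngb3 stood farthest above. It encodes the beta subunit of the cone cyclic nucleotide-gated channel, at chr4:19280850-19510623 on the plus strand. Its counts were 50 and 342 UMIs, or 20.3 and 115 CPM (2.50, 2.07 to 2.96). The share of cells with a UMI at 1000 UMIs was 1.69% (0.903% to 2.87%) and 7.11% (5.31% to 9.29%), against 0.610% and 1.09% in rods. In cells that express the gene most, the libraries were closer: cones were at 2406 and 2429 CPM (0.01, -0.05 to 0.08) and the 8 other bipolar clusters at 540 and 598 CPM (0.14, 0.08 to 0.21). Cluster 10 lay between, at 176 and 293 CPM (0.73, 0.39 to 1.08). Its summed cone genes were at 2132 and 2153 CPM, against 103 and 98.0 CPM in cluster 5. The part of cone RNA in the Cngb3 value of cluster 10 was not tested.

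The Cngb3 UMIs of Ptbp1-KO were gathered in part of the cells. The variance over cells was 3.72 times that of Poisson counts in Ptbp1-KO and 1.28 times in Ptbp1-Ctrl. In Ptbp1-KO 1 cell held 16 UMIs, and 47 cells held 3 or more against 2 Ptbp1-Ctrl cells. Both measures rise with the number of UMIs, which was 50 in Ptbp1-Ctrl and 342 in Ptbp1-KO. They do not show that the gathering was particular to Ptbp1-KO. Those 47 cells had the rod bipolar profile, with Prkca at 6885 CPM against 6602 CPM in the 551 Ptbp1-KO cells without Cngb3. The cone gene Arr3 was at 18.3 CPM in the 47 cells and 18.4 CPM in the 551, and they held 1 UMI of Scgn in all. These cells were singled out after their values were seen.

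Zfp804b and Tenm2 were low in cluster 5 and higher in Ptbp1-KO, and both are abundant in cone bipolar cells. Zfp804b, a zinc finger gene at chr5:6769010-7344756, was at 106 and 237 CPM (1.16, 0.96 to 1.37) in cluster 5 and at 8387 and 7245 CPM in the 8 other clusters (-0.21, -0.23 to -0.19). Tenm2, a teneurin of synaptic adhesion at chr11:36006656-37235964, was at 39.8 and 94.3 CPM (1.24, 0.91 to 1.59) against 1881 and 1994 CPM in the 8 clusters. Cluster 10 matched cluster 5, with Zfp804b at 1.03 (0.67 to 1.41) and Tenm2 at 1.07 (0.56 to 1.59). Other genes of cone bipolar cells did not share one direction in the summed counts. In cluster 5, Grik1 was at 226 and 191 CPM, Scgn at 6.10 and 5.05 CPM and Cntn5 at 11.4 and 9.77 CPM. Slit2 was at 3.25 and 4.04 CPM and Prkar2b at 8.53 and 24.9 CPM. The intervals of Scgn, Cntn5 and Slit2 included 0, and Grik1 was higher in Ptbp1-KO after subtraction of free RNA. The 3 members of the ON cone bipolar list with 20 UMIs were all higher.

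Elmod1 and Chst2 were higher in Ptbp1-KO with UMIs spread over cells nearly as Poisson counts. Elmod1, a GTPase-activating protein gene, was at 54.1 and 142 CPM (1.39, 1.11 to 1.69), with a variance 1.1 and 1.13 times that of Poisson counts. In rods 8.83% and 6.48% of thinned cells had an Elmod1 UMI, so the 4.94% of Ptbp1-Ctrl cluster 5 cells was not above rods while the 14.2% of Ptbp1-KO cells was. Cluster 10 was at 0.80 (0.32 to 1.30) and the 8 clusters at 0.06 (-0.08 to 0.20). Chst2, a carbohydrate sulfotransferase gene, was at 27.2 and 84.2 CPM (1.63, 1.23 to 2.04) in cluster 5, 0.61 (-0.18 to 1.42) in cluster 10 and 0.07 (-0.17 to 0.31) in the 8 clusters. The differences between clusters in these values were not tested, since each cluster has 1 library per genotype.

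**Figure D3:**
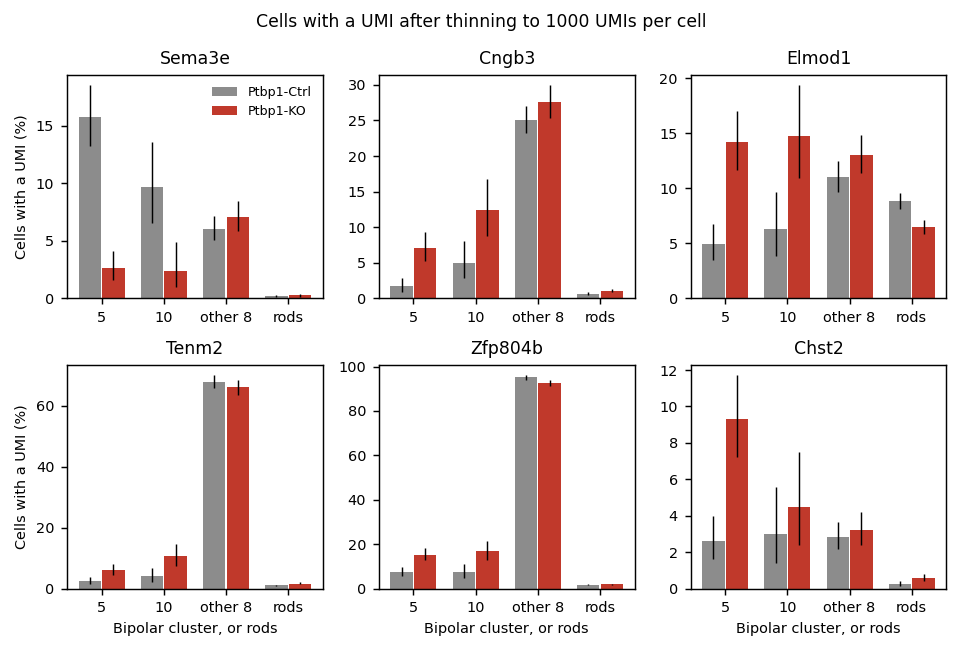
Share of cells with a UMI (bars, %, with 95% Clopper-Pearson intervals) for 6 genes in cluster 5, cluster 10, the 8 other bipolar clusters and rods of Ptbp1-Ctrl (grey) and Ptbp1-KO (red), each cell thinned to 1000 UMIs. Sema3e is at 15.7% and 2.61% in cluster 5 and at 6.05% and 7.07% in the 8 other clusters, while Tenm2 and Zfp804b stay far below the level of those clusters.

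Prkg1, which encodes cyclic GMP-dependent protein kinase 1, was the most abundant of the 30 genes with the lowest or highest ratios, at 2889 and 1458 CPM (-0.99, -1.04 to -0.93). It was also lower in cluster 10 (-0.82, -0.93 to -0.71), in cluster 19 (-0.98, -1.10 to -0.87) and in the 8 clusters together (-0.53, -0.59 to -0.48), and was at 0.07 (-0.01 to 0.15) in amacrine cells. Atp2c1, a Golgi calcium and manganese pump, was at 344 and 113 CPM (-1.61, -1.80 to -1.43) in cluster 5, -1.30 in cluster 10 and -0.71 in the 8 clusters, with -0.27 in rods. The non-coding gene Gm28807 was found almost solely in clusters 5 and 10; it had 609 and 353 UMIs in cluster 5 (-1.06, -1.25 to -0.87), 285 and 194 in cluster 10 and 35 and 13 in the 8 others. Vwc2l was at 278 and 155 CPM in cluster 5 (-0.84, -1.01 to -0.67), with -0.08 (-0.36 to 0.21) in cluster 10.

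Several of the 30 genes differed alike outside cluster 5 and are not particular to it. Gm47283, on the Y chromosome, was at 1271 and 235 CPM (-2.44, -2.56 to -2.32) in cluster 5 and at -2.50 in the 8 other clusters, -2.16 in rods and -2.20 in Müller glia. Cox7b, Rpl29, Gm10260, Abhd14b and Abcd4 were already known to differ in several cell types of these libraries. Reads of ribosomal, mitochondrial and repeat-like genes such as Rpl29, Cox7b, Gm10260, Gm10800 and Gm10801 can be shared with near-identical copies, so their values are uncertain. Of the 30 genes, 6 lay on chromosome 9 (Elmod1, Tmod2, Chst2, Atp2c1, Rpl29 and Abhd14b), against 224 (5.90%) of the 3797 genes compared. Rpl29 at chr9:106429454-106431568 and Abhd14b at chr9:106447459-106452923 are near neighbours with ratios of opposite sign (-1.08 and 1.96).

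**Figure D4:**
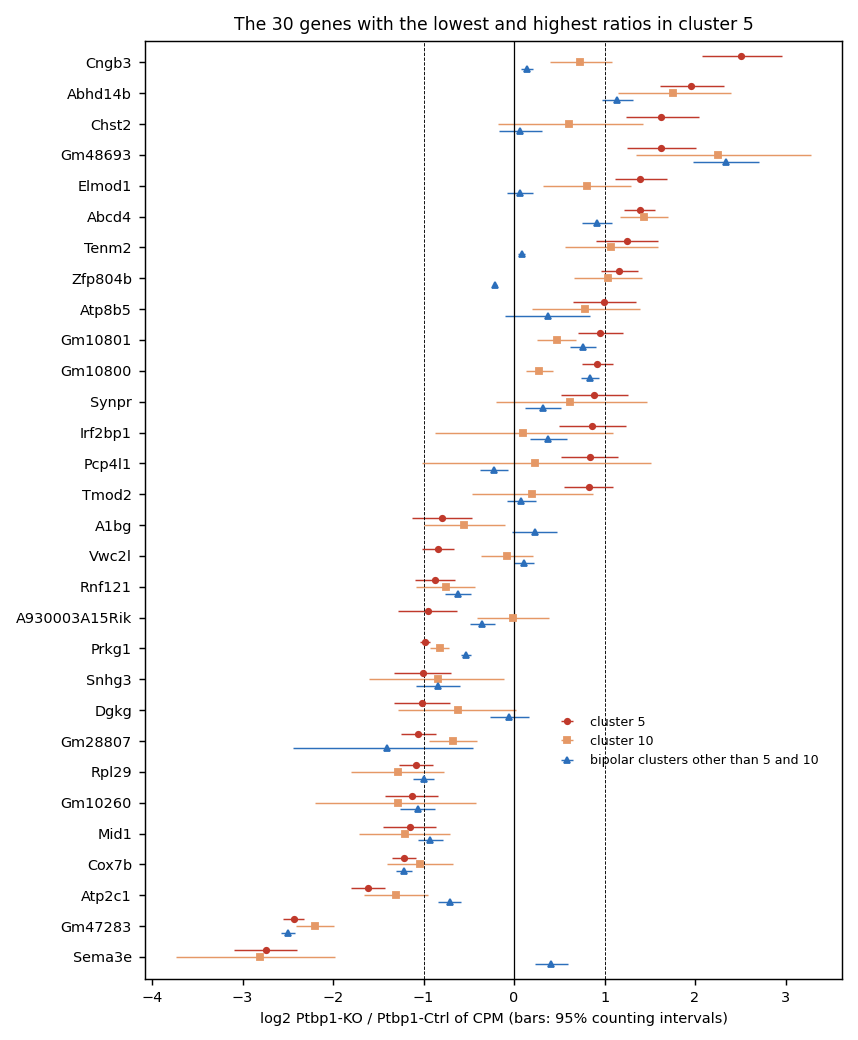
log2 Ptbp1-KO over Ptbp1-Ctrl of CPM (x axis, bars are 95% counting intervals) for the 30 genes with the lowest and highest ratios in cluster 5 (lines), in cluster 5, in cluster 10 and in the 8 other bipolar clusters summed, where a gene had 20 UMIs. Gm47283, Cox7b and Rpl29 lie close together in all 3, while Sema3e and Zfp804b lie on opposite sides of 0 in cluster 5 and in the 8 clusters.

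Within cluster 5, the variance over cells was near that of counting error for most genes. The median ratio of the variance over cells to that of Poisson counts was 1.08 and 1.1. In both libraries, 63 of 3797 genes reached 2. For genes of few UMIs per cell this ratio stays low even where cells differ, so it does not show that cells were alike. Of the 20 genes with the highest ratio, 11 were at least 2-fold higher in rods than in cluster 5, among them the adhesion gene Cadm2 at a ratio of 8.91 and 10.5 and Dmd, the dystrophin gene, at 5.54 and 6.65. Another 8 were lower in rods, 5 of them mitochondrial transcripts, and these included Lrrtm4, a synaptic adhesion gene, at a ratio of 5.27 and 7.27 and Prkca at 3.32 and 4.10. Dmd was found in 307 of 771 Ptbp1-Ctrl cells and 265 of 690 Ptbp1-KO cells, and up to 41 UMIs lay in 1 cell. At equal depth of 2000 UMIs, Dmd and Cadm2 varied together over cells (Pearson r 0.73 over 706 Ptbp1-Ctrl cells and 0.71 over 675 Ptbp1-KO cells), as did Dmd and the rod arrestin Sag (0.53 and 0.61), while Dmd and Prkca were weakly opposed (-0.20 and -0.21). The points are cells of 1 library each and share its free RNA. As means of both libraries, Dmd was at 614 CPM in cluster 5, 2348 CPM in the 8 clusters and 5083 CPM in rods. These genes were chosen after their values were seen, and the part of rod RNA in this spread was not tested.

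A few markers of other cells in cluster 5 came from single cells. C1qa, a microglial complement gene, had 0 and 34 UMIs, and 33 of these 34 were in 1 cell. That cell also held 154 of the 1054 Cst3 UMIs and 30 UMIs of Prkca. Nefl, a neurofilament gene of ganglion cells, had 1 and 24 UMIs, of which 17 lay in 1 cell. Of the Müller glia list, 7 of 8 genes had 20 UMIs, 6 were higher and 1 lower, with a median of 0.31; Glul, glutamine synthetase, was at 108 and 151 CPM (0.48, 0.26 to 0.71). After subtraction of free RNA, none of these 7 glial genes kept a value in both libraries. Of the 7 cone genes, 5 had 20 UMIs, 2 higher and 3 lower, with a median of -0.03. No horizontal cell or erythrocyte gene reached 20 UMIs. The most abundant member of the OFF and ON cone bipolar lists was Grik1, at 556 and 567 UMIs (-0.24, -0.41 to -0.07). Prkar2b was at 21 and 74 UMIs (1.55, 0.83 to 2.32) and Igfn1 at 32 and 81 UMIs (1.07, 0.46 to 1.71). The intervals of Nnat (-0.07), Kirrel3 (0.90) and Cpne9 (1.31) included 0. After subtraction of free RNA, all 3 OFF cone bipolar genes were higher in Ptbp1-KO, Grik1 among them. In all, 18 of the 24 OFF and ON cone bipolar genes in the table did not reach 20 UMIs.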

How the data were processed

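Retinal cells of 2 mice at 30 days of age were profiled with a droplet 3' kit. According to the submitters' processing notes and the study's methods, reads were aligned to mm10 (GRCm38) with Cell Ranger 7.0.1, and cells with 200 to 5000 genes, 700 to 10000 UMIs and under 20% mitochondrial UMIs were kept and clustered in Seurat 4; all 30943 deposited cells met these limits. The deposited table holds UMI counts, not normalized by the authors, for 25778 genes. The deposited per-cell annotation gives cluster, cell type and library. Its 2 further per-cell quantities were not used.

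Counts were summed over the cells of a cluster and library and divided by the total (CPM). Intervals were exact at 95%: Poisson for levels, conditional binomial for log2 ratios and Clopper-Pearson for shares. They cover counting error only. With 1 library per genotype no test was run. The script for log2 ratios was tested on simulated data. A share of cells with a UMI was compared after thinning each cell to 1000 UMIs, leaving out 2 cells of cluster 5 in Ptbp1-Ctrl and 1 in Ptbp1-KO. A floor of 3 counts stood for 0. Gene positions came from the GENCODE annotation of GRCm38.

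The 15 genes with the lowest and the 15 with the highest log2 ratio, among genes with a mean of 50 CPM and 50 UMIs, were named, with the 15 highest and 10 lowest of cluster 5 over other bipolar cells (at least 100 CPM) and the members of the lists. The cluster, the lists and the rules were chosen with earlier results of these data known. Scrublet, in scanpy 1.11.5, marked no cell at its automatic threshold, so no doublet was removed, and the 5% of cells with the highest score were left out only as an alternative. Alternatives also covered TMM scaling (edgeR 4.0.16), centring, thinning, equal weight per cell, subtraction of free RNA, other minimum levels and other denominators. Leaving out cells whose barcode is in both libraries was added after seeing the data. Background subtraction took 29.9% (Ptbp1-Ctrl) and 25.4% (Ptbp1-KO) of UMIs as free RNA, scaled by rod genes. Analyses used Python 3.11.15 and R 4.3.3. Results of some single genes are not reported here.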

Additional observations from a re-analysis of the deposited data

Results flagged for a closer look

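For 3 of the 30 genes with the lowest or highest ratios in cluster 5, the log2 ratio of Ptbp1-KO over Ptbp1-Ctrl lay on the other side of 0 in the 8 bipolar clusters other than 5 and 10, with both counting intervals clear of 0. Sema3e was at -2.74 in cluster 5 and 0.41 in the 8 clusters. Zfp804b was at 1.16 and -0.21. Pcp4l1, a gene related to the calmodulin-binding Pcp4, was at 0.83 in cluster 5 (50.8 and 90.6 CPM) and -0.22 in the 8 clusters. With 1 library per genotype these differences between clusters were not tested.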

How the results depend on the processing

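With 1 library per genotype, leaving out a replicate gives no comparison. No paired analysis was possible because each genotype is 1 library and the labels give no replicate numbers. The 30 genes with the lowest or highest ratios kept their sign under every alternative run for them, and 16 of their 204 alternative values left the counting interval; Chst2 went from 1.63 to 3.02, Elmod1 from 1.39 to 2.57 and Sema3e from -2.74 to -3.51 under background subtraction, and Synpr from 0.88 to 1.72 and Snhg3 from -1.01 to -1.70 in cells thinned to 1000 UMIs. The log2 value of Ptbp1 against the floor was -4.24 and shrank to -1.96 in thinned cells, where fewer counts were left.

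Signs turned for at least 6 of the genes of the lists reported here. In thinned cells Otx2 was at -0.18, Isl1 at -0.060, Nr4a1 at -0.039 and Pde6a at 0.27. Under background subtraction Gnat1 was at 0.060, Pde6a at 1.05 and Nrl at 1.09. Further genes turned there that are not among these 6, with Grik1 and some rod bipolar genes among them. All 8 rod bipolar genes kept a value after subtraction, with 1 higher and 7 lower. The cause was not tested.

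The number of genes at least 2-fold higher, 8, became 16 in thinned cells, 1 at a minimum of 200 CPM and 53 at 10 CPM. The number at least 2-fold lower, 10, became 3 at 200 CPM and 62 at 10 CPM.

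Counts of list members higher in Ptbp1-KO moved as follows. Subtraction left no value in both libraries for any of the 5 cone and 7 Müller glia genes and for 7 of the 12 rod genes, so lower counts there need not be a change of sign. Under background subtraction the 4 given markers went from 2 to 1, rod bipolar genes from 4 to 1, OFF cone bipolar from 1 to 3, ON cone bipolar from 3 to 1, rod genes from 0 to 3, cone genes from 2 to 0, Müller glia from 6 to 0, transcription factors from 9 to 4 and stress genes from 5 to 3. In thinned cells OFF cone bipolar went to 2, rod genes to 1, cone genes to 4 and gap junction genes from 0 to 1. With equal weight per cell rod bipolar went to 2 and cone genes to 1. After cells of high doublet score were left out, microglial genes went from 3 to 1. With a minimum of 1 UMI in each library OFF cone bipolar went to 7.

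The share of cluster 5 was 24.1% and 27.1% of bipolar cells, 4.70% and 4.75% of all cells, 12.1% and 13.2% of cells other than rods, and 27.4% and 28.8% of bipolar cells of at least 1500 UMIs; its ratio between libraries was 1.01 for all cells. The difference in the share of cells with a UMI, Ptbp1-KO minus Ptbp1-Ctrl in percentage points, at 2000 UMIs and with no thinning was -22.3 and -27.0 for Sema3e, 9.96 and 14.7 for Cngb3, 13.4 and 28.4 for Elmod1, 8.34 and 13.8 for Tenm2, and 12 and 16.6 for Zfp804b. No thinning carries the difference in depth between the libraries. Depth limits genes of few UMIs, such as Prkcb, Lrit3 and Elavl3, whose intervals include 0.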
